A study of Mus musculus with 22 samples.

Results

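Htr2c, Trhr, Gpr176, Adora1, Adcy8, Arrb1, Ednra, Ednrb and Edn3 are 9 of the 33984 genes counted in mouse choroid plexus (ChP). Htr2c, Trhr, Adora1, Ednra, Ednrb and Edn3 belong to serotonin, thyrotropin-releasing hormone (TRH), adenosine and endothelin signalling. Gpr176 encodes an orphan receptor, and Adcy8 and Arrb1 act inside the cell and are not particular to these ligands. The 9 genes were picked by name, with earlier results on Cre-Tat and on Otx2+/GFP mice known. Their values in those comparisons, and in differences between them, are therefore given as a description. Whether a value there passed the threshold of the fit over all genes is stated as part of that description. P-values of the 9 genes are printed only for the comparisons of Otx2+/AA mice and of the ventricles. Those comparisons reuse control pools of the ones known before, so they are no independent tests either. RNA of 14 pools of mice was sequenced, with 2 pools, A and B, in each of 7 groups. In the conditional model, 3-month-old Otx2lox/lox mice of strain S129 received Cre-Tat, a recombinase fused to a peptide that carries it into cells, or vehicle. The injections were made only into the lateral ventricles (LV), and ChP of the LV and of the fourth ventricle (4V) was dissected 15 days later. A pool held 5 mice after Cre-Tat and 4 after vehicle, and the vehicle mice carry the floxed alleles too. By the study's methods, LV and 4V ChP of a treatment came from the same mice, so the ventricles are not separate sets of animals. In the constitutive model, of strain B6D2, the 4V ChP came from 3-month-old wildtype mice in pools of 5 and from Otx2 (+/-) mice, the Otx2+/GFP heterozygotes of the study, in pools of 4. Otx2+/AA mice were the other group of this strain, and the sources used here do not describe the AA allele, the age of these mice or their number in a pool. The heterozygotes lack an Otx2 allele in every cell and from conception, whereas Cre-Tat acts in adult ChP.

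The ChP epithelium secretes cerebrospinal fluid, and signals from the blood and the brain reach it through G protein-coupled receptors. The serotonin 2C receptor and the TRH receptor couple to the Gq family and raise intracellular calcium, the adenosine A1 receptor couples to Gi and lowers cyclic AMP, and the endothelin receptors can couple to several G proteins. The messenger RNA of the serotonin 2C receptor is known to be abundant in the ChP epithelium. Adenylyl cyclases make cyclic AMP, and beta-arrestins end receptor signalling at the membrane.

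Levels are given as CPM, counts per 1000000 counts, of the transcript that held the most counts of each gene, scaled between pools with TMM factors. Pools held 22750019 to 50088408 counts over all transcripts. In the conditional model, 14 of 16 files bear another library number than their GEO sample does, and files were joined by number. Files joined in this way differed by 1.00 to 1.04 times the degrees of freedom in a chi-square test, as repeat runs of a library do, and files joined as attached differed by 21.1 to 37.3 times. Counts of Otx2 over its whole transcript were higher in the pools labelled as knockdown, with 1130 ± 162 CPM (SD, n = 2 pools) in pools labelled Cre-Tat and 433 ± 60.1 in vehicle pools of LV ChP. In 4V ChP, Otx2 was at 1203 ± 10.9 CPM in Cre-Tat and 387 ± 6.57 in vehicle pools, and at 959 ± 106 in Otx2+/GFP, 346 ± 9.501 in Otx2+/AA and 333 ± 41.9 in wildtype pools. These counts take in all exons, so they check neither the exon that Cre removes nor the GFP allele, and counts by exon were not analysed here. The study screened Cre-Tat tissue for reduced Otx2 by qPCR before pooling. From its sequencing, it also reported fewer reads on exon 2 of Otx2 with Cre-Tat in both ventricles and in Otx2+/GFP mice. It lists Otx2 among the genes lowered in both models. Groups are called by their labels throughout. The ventricle labels held, since Emx2 lay at 4.74 to 5.64 CPM in LV pools and at most at 0.27 in 4V pools. Each of the 10 epithelial markers had counts in each group, so the labelled tissue was present.

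**Figure D1:**
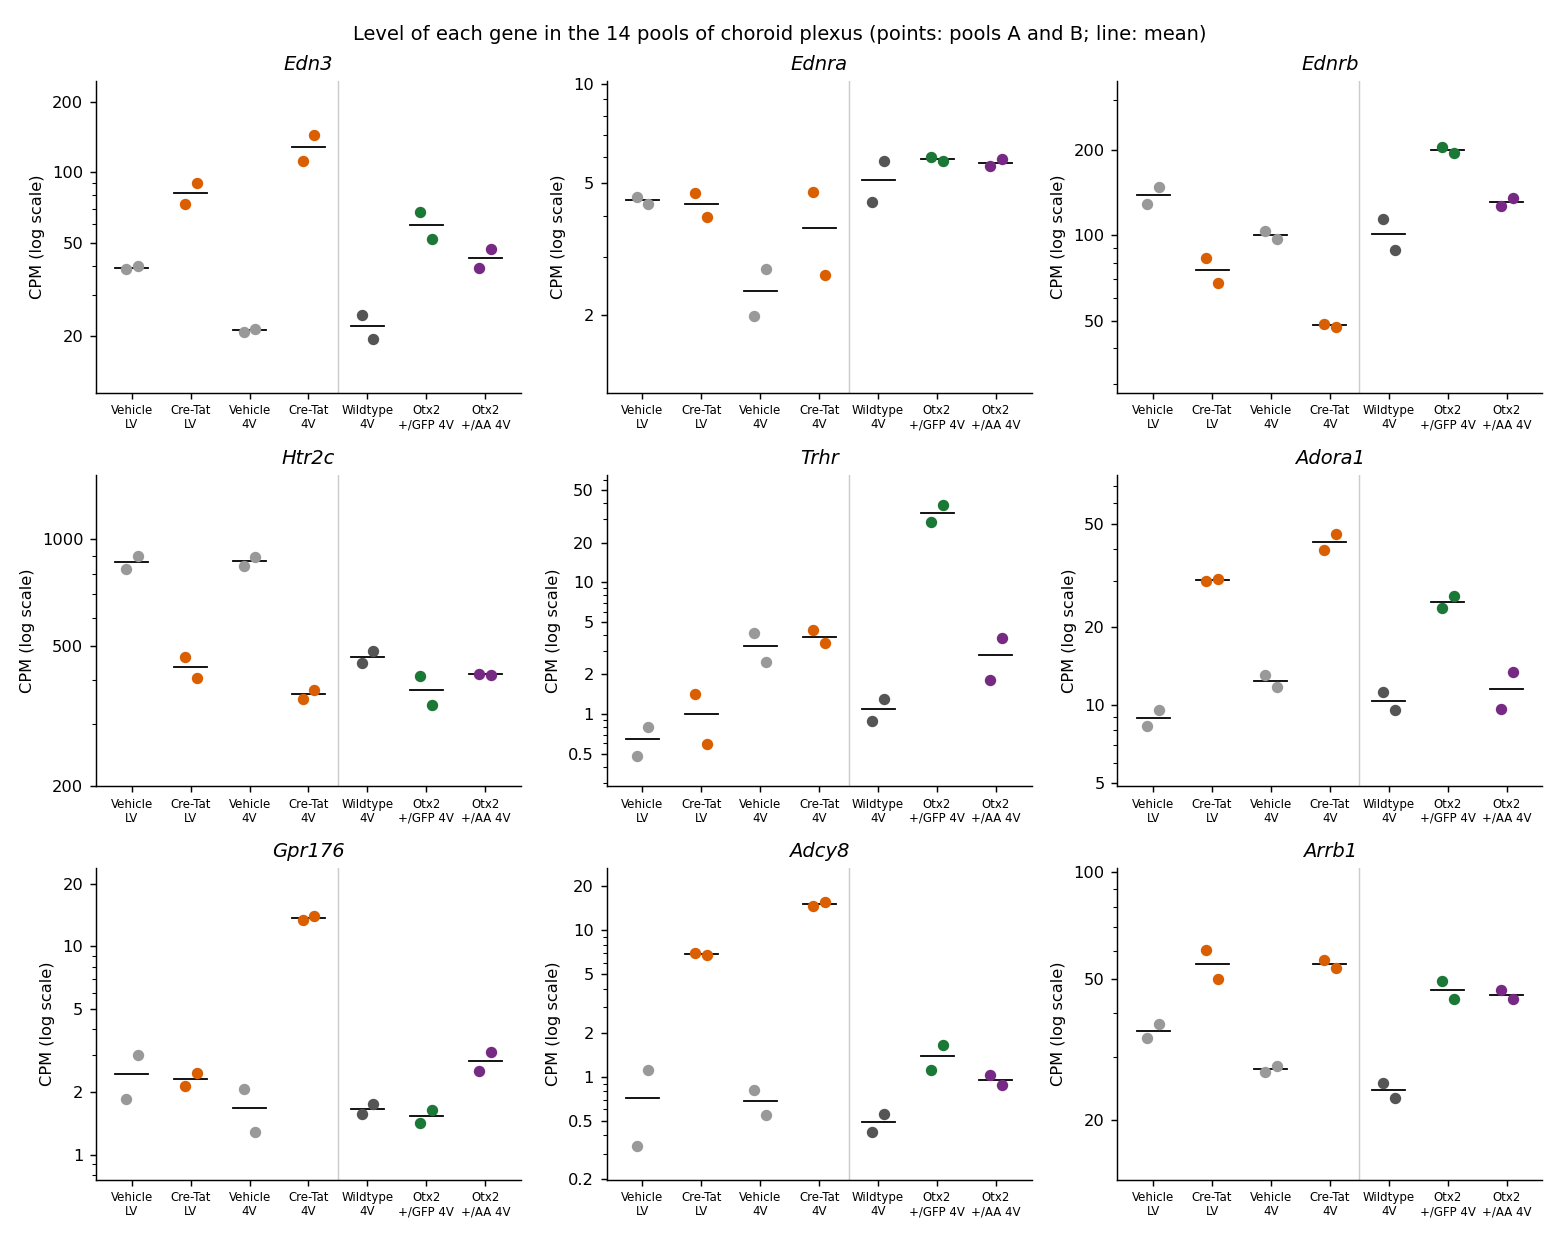
Level of each of the 9 genes in CPM (log scale) in the 14 pools, grouped by treatment or genotype and ventricle; points are pools A and B, lines their mean, and the vertical line separates the conditional from the constitutive model. Trhr stands out at 28.5 and 38.6 CPM in Otx2+/GFP pools, and Gpr176 at 13.4 and 14.02 CPM in Cre-Tat pools of 4V ChP.

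The endothelins act through a ligand, Edn3, and the receptors Ednra and Ednrb. Edn3 (chromosome 2, 174760619 to 174784042, plus strand, GRCm38) encodes endothelin 3, a secreted peptide that binds the B receptor best. Its level in LV ChP was 73.2 and 90.2 CPM in Cre-Tat pools against 38.8 and 39.6 in vehicle pools. In 4V ChP, it was 112 and 144 CPM with Cre-Tat against 20.7 and 21.5 with vehicle, and no Cre-Tat pool overlapped the vehicle pools of its ventricle. The fitted log2 fold change of Edn3 was 1.08 ± 0.17 (SE), or 2.12-fold, in LV and 2.61 ± 0.16, or 6.09-fold, in 4V ChP. The fitted difference between the ventricles was 1.52 ± 0.23 on the log2 scale and did not pass the threshold. In the constitutive model, Edn3 was at 67.5 and 51.9 CPM in Otx2+/GFP, 39.1 and 47.1 in Otx2+/AA and 24.6 and 19.5 in wildtype pools. Both mutants lay above wildtype, and the Otx2+/GFP pools lay above the Otx2+/AA pools. The log2 fold change of Edn3 against wildtype was 1.43 ± 0.17 in Otx2+/GFP mice. In bulk tissue, fewer cells of a type and less RNA in each cell cannot be told apart, and this holds for each level given here.

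Ednrb (chromosome 14, 103814625 to 103844402, minus strand) encodes the endothelin B receptor, which binds all the endothelins. It had opposite directions in the conditional and constitutive models. With Cre-Tat it was at 82.9 and 67.9 CPM in LV ChP, below 129 and 147 with vehicle. In 4V ChP, it was at 48.7 and 47.4 CPM with Cre-Tat, below 103 and 97.2 with vehicle. Otx2+/GFP pools held 205 and 195 CPM of Ednrb, above 114 and 88.5 in wildtype pools. The log2 fold changes were -0.85 ± 0.17 in LV and -1.05 ± 0.13 in 4V ChP with Cre-Tat, and 0.98 ± 0.14 in Otx2+/GFP mice. The value in LV ChP was -0.75 without vehicle pool B and then no longer passed the threshold of 0.05 on adjusted p, nor did it with total counts in place of TMM factors. As fitted over the 8 pools of 4V ChP, the Ednrb difference was 2.05 ± 0.19 higher on the log2 scale in the constitutive model. Wildtype and vehicle pools of 4V ChP overlapped in Ednrb. The model, the strain and the sequencing run differ together and cannot be told apart.

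Ednra (chromosome 8, 77663031 to 77724464, minus strand), the endothelin A receptor, which is known from vascular smooth muscle, was low throughout, at 1.98 to 6.00 CPM over the 14 pools. Its groups overlapped with their neighbours at each step from the lowest to the highest mean. With Cre-Tat, the log2 fold change of Ednra was -0.02 ± 0.26 in LV and 0.65 ± 0.35 in 4V ChP, and in Otx2+/GFP mice it was 0.21 ± 0.22. Per kilobase of transcript, wildtype 4V ChP held 1.41 ± 0.283 CPM of Ednra and 25.3 ± 4.46 of Ednrb (SD, n = 2), so the B receptor was the more abundant.

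Sequences just before the transcription start are shown for the endothelin ligand and its B receptor, which moved in opposite directions with Cre-Tat, and for the serotonin receptor. They are the 250 bases upstream of the RefSeq start in GRCm38.p6, read from 5′ to 3′ on the strand of the gene. TAATCC, the sequence that OTX2 and related homeoproteins prefer, was searched on both strands and is in capitals, as GGATTA where it lies on the other strand. RefSeq windows were found for 6 of the 9 genes, 7 windows in all, and the Ednrb window alone held a match, 25 bases before the start. Over all 32851 windows, 6.25% held a match. The windows are chr2:174760369-174760618 (plus) for Edn3, chr14:103843702-103843951 (minus) for Ednrb and chrX:146962263-146962512 (plus) for Htr2c, and none overlaps a GENCODE exon. The Ednrb window lies upstream of Ednrb-202, the transcript counted here, and within an intron of the longer form Ednrb-201, which sets the span given above.
Edn3: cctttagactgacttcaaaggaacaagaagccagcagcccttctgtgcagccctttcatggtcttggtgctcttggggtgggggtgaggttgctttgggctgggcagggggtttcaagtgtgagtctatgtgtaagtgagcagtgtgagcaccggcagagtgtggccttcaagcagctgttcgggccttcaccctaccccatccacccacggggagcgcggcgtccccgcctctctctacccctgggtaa
Ednrb: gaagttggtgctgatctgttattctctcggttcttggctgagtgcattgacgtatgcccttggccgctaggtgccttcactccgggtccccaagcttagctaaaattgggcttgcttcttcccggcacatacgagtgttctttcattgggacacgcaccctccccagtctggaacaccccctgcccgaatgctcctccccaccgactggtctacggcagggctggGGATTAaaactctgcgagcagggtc
Htr2c: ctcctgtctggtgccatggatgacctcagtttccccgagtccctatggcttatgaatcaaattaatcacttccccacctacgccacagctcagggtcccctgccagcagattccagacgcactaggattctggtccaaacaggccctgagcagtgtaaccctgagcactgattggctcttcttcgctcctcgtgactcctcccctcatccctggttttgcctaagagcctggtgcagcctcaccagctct

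Htr2c (chromosome X, 146962513 to 147197277, plus strand) encodes the serotonin 2C receptor and was the most abundant of the 9 genes. In LV ChP, it was at 463 and 405 CPM with Cre-Tat against 822 and 899 with vehicle. In 4V ChP, Cre-Tat pools held 352 and 375 CPM against 841 and 894 in vehicle pools. The pools did not overlap in either ventricle, and Htr2c was 1.95-fold lower in LV and 2.37-fold lower in 4V ChP, with log2 fold changes of -0.96 ± 0.16 and -1.25 ± 0.15. In the constitutive model, Htr2c was at 409 and 340 CPM in Otx2+/GFP, 416 and 414 in Otx2+/AA and 447 and 483 in wildtype pools. The log2 fold change in Otx2+/GFP mice was -0.31 ± 0.13 and did not pass the threshold. Vehicle pools held about as much Htr2c in LV as in 4V ChP, and wildtype pools of the other strain and run held less than either.

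Trhr (chromosome 15, 44196135 to 44235912, plus strand), the receptor for TRH, was near the lower end of detection outside Otx2+/GFP mice. Vehicle pools of LV ChP held 0.484 and 0.806 CPM, which are 10 and 16 counts, and vehicle pools of 4V ChP held 4.12 and 2.48 CPM. With Cre-Tat, Trhr was at 1.42 and 0.591 CPM in LV and at 4.32 and 3.44 in 4V ChP, overlapping vehicle in each ventricle. Otx2+/GFP pools held 28.5 and 38.6 CPM, or 560 and 753 counts, against 0.889 and 1.29 CPM in wildtype pools. The fitted change was 30.7-fold, with a log2 fold change of 4.94 ± 0.26, and no other group came near these pools. Both annotated transcripts of Trhr were high in these pools, at 33.5 and 18.3 CPM on average, against 1.09 and 0.681 in wildtype pools.

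Adora1 (chromosome 1, 134199223 to 134235431, minus strand), the adenosine A1 receptor, was higher in the pools labelled Cre-Tat and in Otx2+/GFP pools than in their controls. In LV ChP, it was at 30.0 and 30.6 CPM with Cre-Tat against 8.28 and 9.57 with vehicle. In 4V ChP, it was at 39.8 and 45.6 CPM with Cre-Tat against 13.01 and 11.8 with vehicle. Otx2+/GFP pools held 23.7 and 26.3 CPM, wildtype pools 11.2 and 9.55. Adora1 was thus 3.45-fold higher with Cre-Tat in LV and again 3.45-fold in 4V ChP (log2 fold changes of 1.79 ± 0.18 and 1.79 ± 0.16), and 2.41-fold higher in Otx2+/GFP mice. The fitted difference between the ventricles was -0.0016 ± 0.23 on the log2 scale.

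Gpr176 (chromosome 2, 118277110 to 118373419, minus strand) encodes an orphan receptor known from the circadian clock of the suprachiasmatic nucleus. In 4V ChP, it was at 13.4 and 14.02 CPM with Cre-Tat against 2.06 and 1.29 with vehicle. In LV ChP, Cre-Tat pools held 2.14 and 2.46 CPM, within the 1.84 and 3.02 of vehicle pools. The 12 pools other than those of 4V ChP labelled Cre-Tat held 1.29 to 3.10 CPM. Gpr176 was 8.04-fold higher with Cre-Tat in 4V (log2 fold change 3.01 ± 0.26), with -0.06 ± 0.36 in LV ChP. The fitted difference between ventricles was 3.07 ± 0.42 on the log2 scale. This interaction is built from the changes known when Gpr176 was picked, so its call, the only one among 15565 genes (0.00642%), is no test. It no longer passed with counts summed over transcripts, nor without any of 5 of the 8 pools in turn.

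The intracellular genes are an adenylyl cyclase and a beta-arrestin. Adcy8 (chromosome 15, 64697084 to 64922296, minus strand) encodes an adenylyl cyclase that calcium and calmodulin activate. It had 6 to 22 counts in each vehicle pool, at 0.339 and 1.11 CPM in LV and 0.808 and 0.552 in 4V ChP. With Cre-Tat, it was at 6.998 and 6.77 CPM in LV and 14.7 and 15.7 in 4V ChP, the largest fold change of the 9 genes in both ventricles. The log2 fold changes of Adcy8 were 3.27 ± 0.40 in LV and 4.45 ± 0.28 in 4V ChP. The value in LV was 2.65 without vehicle pool A and 4.34 without vehicle pool B, which held 7 and 22 counts of Adcy8. Otx2+/GFP pools held 1.12 and 1.64 CPM against 0.419 and 0.562 in wildtype pools, with a log2 fold change of 1.48 ± 0.47 that did not pass the threshold. Arrb1 (chromosome 7, 99535466 to 99606771, plus strand), which encodes beta-arrestin 1, was at 60.6 and 49.8 CPM in LV and 56.6 and 53.6 in 4V ChP with Cre-Tat. Vehicle pools held 34.1 and 37.4 CPM of Arrb1 in LV and 27.3 and 28.4 in 4V ChP. Otx2+/GFP pools held 49.2 and 43.8 CPM against 25.4 and 23.0 in wildtype pools. The log2 fold changes of Arrb1 were 0.65 ± 0.17, 0.99 ± 0.14 and 0.94 ± 0.13, and the first passed the threshold no longer without Cre-Tat pool A, vehicle pool A or vehicle pool B of LV ChP, at 0.53, 0.58 and 0.72, nor with DESeq2 size factors in edgeR (0.64) or the sum of transcripts (0.63).

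**Figure D2:**
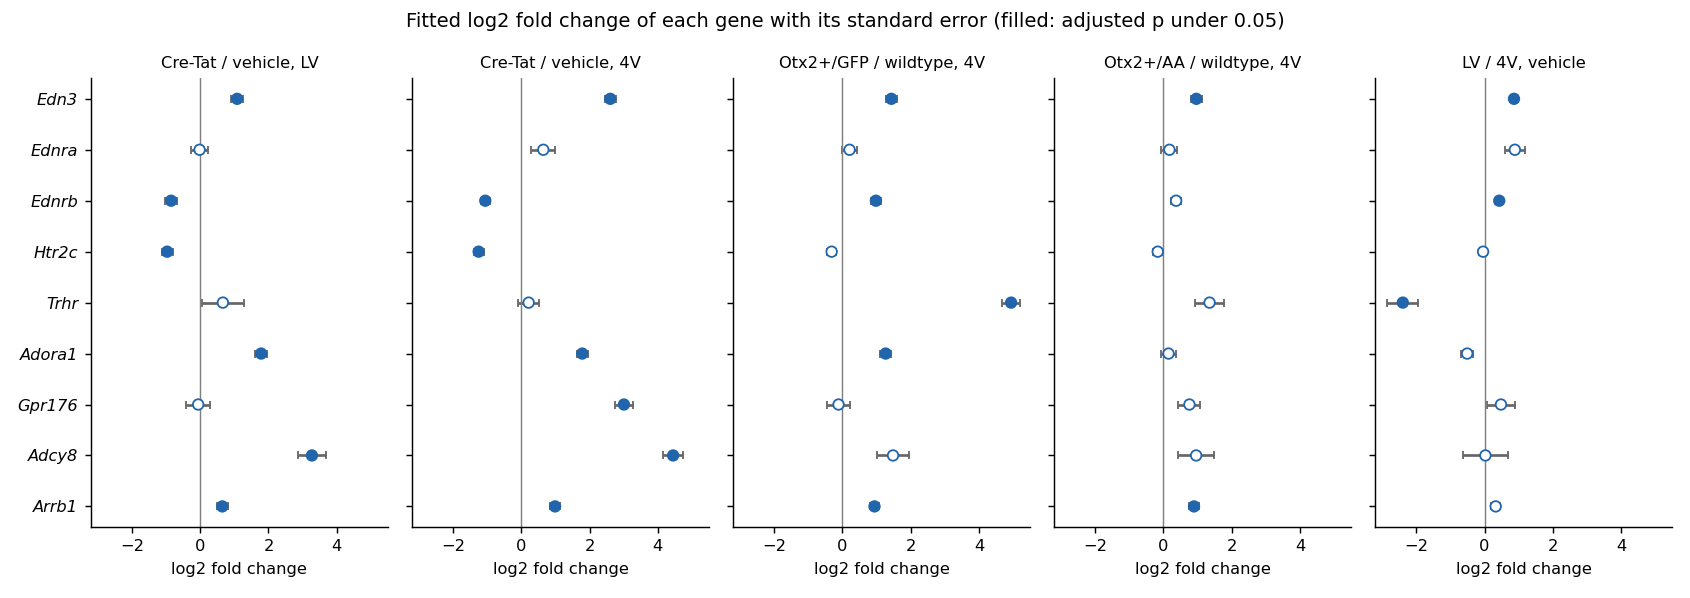
Fitted log2 fold change of each of the 9 genes with its standard error in 5 comparisons of 2 pools against 2; filled points have an adjusted p under 0.05 over all genes tested. Ednrb lies at -1.05 with Cre-Tat in 4V ChP and at 0.98 in Otx2+/GFP mice, and Edn3 lies above 0 in each panel.

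Of the 9 genes, 6 passed the threshold with Cre-Tat in LV ChP (3.24% of all genes tested did), 7 in 4V ChP (10.7%) and 5 in Otx2+/GFP mice (3.53%). Of all genes tested, 2.21% were higher and 1.03% lower with Cre-Tat in LV, 5.70% and 4.98% in 4V ChP, and 1.78% and 1.75% in Otx2+/GFP mice. Groups of 2 pools often do not overlap: this held for 42.9% of all genes tested with Cre-Tat in LV, 50.4% in 4V ChP and 49.1% in Otx2+/GFP mice. These comparisons were known when the genes were picked, so nothing is read from these counts. The same holds between the models, whose difference is built from these comparisons, where 6 of the 9 passed the threshold (1.64% of genes tested, 0.861% upward and 0.783% downward), namely Htr2c, Trhr, Gpr176, Adcy8, Ednrb and Edn3. In fits that omit a pool, the difference of Htr2c lay at 0.81 to 1.07 and that of Edn3 at -1.36 to -0.98, and each failed the threshold without most of the 8 pools. That of Adcy8 failed it without wildtype pool B (-2.74) or vehicle pool B (-2.73). The comparisons with Cre-Tat in LV and 4V ChP share no pools but rest on the same mice, so they do not replicate each other independently. The comparisons of Otx2+/GFP and Otx2+/AA mice share the wildtype pools.

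Markers of other cells moved with Cre-Tat beside these genes, and their part in the levels above was not tested. All 10 epithelial markers fell in 4V ChP and 4 of 10 (Aqp1, Enpp2, Kcne2 and Kcnj13) in LV ChP. Their summed level was 87500 to 98600 CPM in Cre-Tat and 187000 to 219000 in vehicle pools of 4V, and 125000 to 164000 against 227000 to 236000 in LV ChP. Transthyretin, Ttr, made up most of these sums. Of 8 macrophage markers, 3 rose in LV and 6 in 4V ChP, with sums of 107 to 124 CPM against 65.2 to 73.2 in LV and 76.3 to 102 against 46.2 to 48.6 in 4V ChP. Of 6 astrocyte and ependymal markers, 2 rose and 1 fell in LV, and 4 rose and 1 fell in 4V ChP, with sums of 232 to 254 CPM against 178 to 195 in LV and 307 to 318 against 204 to 242 in 4V ChP. Plvap, an endothelial marker, rose in 4V ChP, and of the fibroblast markers Col1a2 rose and Pdgfra fell in both ventricles. Sums of 7 fibroblast markers were lower with Cre-Tat, at 564 to 565 against 597 to 633 CPM in LV and 436 to 486 against 492 to 515 in 4V ChP. Of 7 neuron markers, Snap25 rose in LV and Syt1 fell in 4V ChP. Sums of 8 endothelial markers overlapped between Cre-Tat and vehicle pools in both ventricles, at 223 to 254 against 204 to 230 CPM in LV and 129 to 148 against 128 to 145 in 4V ChP. Sums of 8 mural markers overlapped as well, at 248 to 335 against 255 to 274 CPM in LV and 221 to 247 against 214 to 237 in 4V ChP. Endothelial and mural cells are among those that carry endothelin receptors. In Otx2+/GFP mice, 3 of 10 epithelial markers fell (Folr1, Prlr and Ttr), with epithelial sums of 128000 to 135000 CPM against 191000 to 202000 in wildtype pools. In the same mice, 2 of 7 fibroblast markers rose (Col1a2 and Col3a1), with fibroblast sums of 1000 to 1120 CPM against 725 to 801 in wildtype pools. Of 6 astrocyte and ependymal markers, 2 rose in Otx2+/GFP mice (Aqp4 and Slc1a3). The sums of these markers overlapped, at 323 to 422 CPM in Otx2+/GFP and 344 to 350 in wildtype pools. Of 8 macrophage markers, 1 rose in Otx2+/GFP mice (Mrc1), with sums of 96.3 to 104 CPM against 90.4 to 90.5 in wildtype pools. None of the macrophage, endothelial or mural markers was at 0 throughout a group.

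In Otx2+/AA mice, Edn3 and Arrb1 were higher than in wildtype mice, and the other 7 genes did not pass the threshold. Thus 2 of the 9 genes passed, both upward, while 0.345% of the 14494 genes tested did (0.172% upward). Arrb1 was at 46.4 and 43.8 CPM in Otx2+/AA against 25.4 and 23.0 in wildtype pools, which is 1.86-fold (log2 fold change 0.90 ± 0.14, adjusted p = 0.0141, edgeR quasi-likelihood test). Edn3 was 1.95-fold higher (0.96 ± 0.16, adjusted p = 0.0242, edgeR). Neither gene overlapped between the groups, as held for 38.0% of all genes tested. With counts summed over all transcripts of a gene, the adjusted p of Arrb1 became 0.0568 and that of Edn3 0.0794 (edgeR). Without Otx2+/AA pool B, Edn3 was at 0.82 on the log2 scale (adjusted p = 0.0512, edgeR). The wildtype pools also served as controls in the comparison of Otx2+/GFP mice that was known when the genes were picked. Low values in these pools would raise a gene in both comparisons. The p-values and the count of 2 are therefore not independent of how the genes were picked. Vehicle pools of 4V ChP, of the other strain and run, held 27.3 and 28.4 CPM of Arrb1, above both wildtype pools. They held 20.7 and 21.5 CPM of Edn3, which overlapped wildtype. These vehicle pools were controls of a comparison known at picking too, so they are no independent check.

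Trhr was at 1.83 and 3.77 CPM in Otx2+/AA pools, above both wildtype pools, or 1.35 ± 0.42 on the log2 scale (adjusted p = 0.263, edgeR). Blocked on pool letter, its adjusted p was 0.0201, and without wildtype pool B it was 0.0361, at 1.64 (edgeR). With no filter on low counts, it was 0.0109 (edgeR). Without Otx2+/AA pool B, Trhr was at 0.75, with an adjusted p of 0.643 (edgeR). The values of the others were 0.96 ± 0.52 for Adcy8 (adjusted p = 0.676), 0.76 ± 0.32 for Gpr176 (0.484), 0.37 ± 0.14 for Ednrb (0.412), 0.18 ± 0.23 for Ednra (0.911), 0.15 ± 0.21 for Adora1 (0.913) and -0.17 ± 0.13 for Htr2c (0.812), all by edgeR. Adora1, at 9.62 and 13.5 CPM, overlapped wildtype in these mice. Epithelial marker sums were 157000 to 158000 CPM in Otx2+/AA and 191000 to 202000 in wildtype pools, and the median log2 fold change of the 10 markers was -0.17.

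Between the ventricles of vehicle mice, Edn3 and Ednrb were higher in LV and Trhr was higher in 4V ChP. The threshold was passed by 3 of the 9 genes and by 7.44% of the 14561 genes tested (3.46% higher and 3.98% lower in LV), while 54.3% of them did not overlap between the groups. Edn3 was 1.82-fold higher in LV than in 4V ChP (log2 fold change 0.86 ± 0.13, adjusted p = 0.00132, edgeR), with 38.8 and 39.6 against 20.7 and 21.5 CPM. Trhr was 5.25-fold lower in LV (-2.39 ± 0.46, adjusted p = 0.00596, edgeR), from 26 counts in all in the LV pools. Without vehicle pool A of 4V ChP, Trhr was at -1.95 on the log2 scale (adjusted p = 0.103, edgeR). Ednrb was 1.35-fold higher in LV ChP (0.43 ± 0.12, adjusted p = 0.0446, edgeR), which did not hold without vehicle pool B of LV or either vehicle pool of 4V ChP, at 0.35, 0.49 and 0.38. With total counts in place of TMM factors, Ednrb was at 0.24 with an adjusted p of 0.233 (edgeR). With counts summed over all transcripts of a gene, Ednrb was at 0.45 with an adjusted p of 0.0609 (edgeR).

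Ednra was at 4.55 and 4.33 CPM in LV and at 1.98 and 2.76 in 4V ChP, without overlap, and did not pass the threshold (0.89 ± 0.30, adjusted p = 0.0890, edgeR). It passed with no filter on low counts (adjusted p = 0.0393) and when blocked on pool letter (0.0449), both by edgeR. In the same comparison, 3 of 8 endothelial markers (Pecam1, Plvap and Tek) were higher in LV, with sums of 204 to 230 CPM against 128 to 145, and the part of vessels in the levels of Ednra and Ednrb was not tested. Htr2c (-0.04 ± 0.12, adjusted p = 0.879), Adcy8 (0.03 ± 0.67, 0.989), Gpr176 (0.48 ± 0.40, 0.525), Arrb1 (0.33 ± 0.13, 0.145) and Adora1 (-0.51 ± 0.18, 0.106) did not pass the threshold by edgeR. With total counts, Adora1 was lower in LV at -0.70, with an adjusted p of 0.0315 (edgeR). The vehicle pools also served as controls for Cre-Tat, in comparisons known when the genes were picked. Their LV and 4V ChP came from the same mice, and the fit did not pair them. A block on pool letter pairs them only if the letters mark the same mice, which is not stated.

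The other genes of these pathways were followed in lists of 86 genes for the making, transport and removal of the ligands, their other receptors, and the G proteins, cyclases and kinases behind them. The lists were drawn up with earlier results of the knockdown comparisons known, so the adjusted p of a list gene there is its value in the fit over all genes and no independent evidence. The serotonin list was mostly silent, with 3 of its 21 genes tested with Cre-Tat in 4V ChP and 4 in LV ChP. Among serotonin receptors, no gene of the list reached an average of 0.5 CPM, and Htr3a was the highest at 0.439. Slc29a4, the plasma membrane monoamine transporter, fell in each of the 3 knockdown comparisons, by 1.36 ± 0.20 on the log2 scale in LV ChP (adjusted p = 0.00169), by 1.31 ± 0.14 in 4V ChP (8.36e-06) and by 0.76 ± 0.11 in Otx2+/GFP mice (0.00828), all by edgeR. Maob, monoamine oxidase B, which breaks down amines, rose with Cre-Tat 1.96-fold in LV (adjusted p = 0.00632) and 1.66-fold in 4V ChP (0.00236, edgeR). In Otx2+/GFP mice, Maob was at 0.09 ± 0.12 on the log2 scale (adjusted p = 0.757, edgeR). Trh itself, the ligand of Trhr, had at most 3 counts in any pool, and Pgpep1, a peptidase that can cleave TRH, rose 1.55-fold with Cre-Tat in 4V ChP (adjusted p = 0.0107, edgeR).

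Of the 15 adenosine genes, 2 of 10 tested passed the threshold with Cre-Tat in LV ChP (3.24% of all genes tested did), 4 of 10 in 4V ChP (10.7%) and 3 of 12 in Otx2+/GFP mice (3.53%). Entpd3, an ectonucleotidase that breaks down extracellular nucleotides, fell in all 3, to 4.02 ± 0.301 from 11.2 ± 1.05 CPM in LV ChP (adjusted p = 0.00222), to 7.30 ± 1.47 from 21.8 ± 0.156 in 4V ChP (1.88e-05) and to 5.03 ± 0.789 from 17.3 ± 1.08 in Otx2+/GFP mice (0.00145, edgeR). Adora2b, the low-affinity adenosine receptor that couples to Gs, fell in 4V ChP with Cre-Tat by 0.88 ± 0.20 on the log2 scale (adjusted p = 0.00663) and in Otx2+/GFP mice by 1.45 ± 0.23 (0.0122, edgeR). In LV ChP, its log2 fold change was -0.75 ± 0.20 (adjusted p = 0.0602, edgeR). The concentrative nucleoside transporter Slc28a3 fell with Cre-Tat by 0.75 ± 0.16 in LV (adjusted p = 0.0200) and by 0.83 ± 0.14 in 4V ChP (0.000915, edgeR). Slc29a3, an equilibrative transporter of intracellular membranes, rose 3.45-fold in 4V ChP with Cre-Tat, from 1.802 ± 0.0542 to 6.20 ± 0.903 CPM (adjusted p = 0.000487, edgeR). Adk, adenosine kinase, rose 1.87-fold in Otx2+/GFP mice (adjusted p = 0.0107, edgeR).

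In the endothelin list, 4 of 5 genes were tested. With Cre-Tat, their median log2 fold change was 0.18 in LV and 0.22 in 4V ChP. Mme, neprilysin, a peptidase of the cell surface, rose 2.55-fold in Otx2+/GFP mice (adjusted p = 0.00188, edgeR), and Ece1, the enzyme that makes mature endothelin, was 1.91-fold higher in LV than in 4V ChP (0.00687, edgeR). Among the other cyclases, Adcy5 rose with Cre-Tat in 4V ChP, 2.68-fold (adjusted p = 3.06e-06), and in Otx2+/GFP mice, 1.65-fold (0.0182), and Adcy7 rose 2.37-fold in Otx2+/GFP mice (0.0271, edgeR). With Cre-Tat in LV ChP, Adcy5 was at 0.60 ± 0.17 on the log2 scale (adjusted p = 0.0786, edgeR). Arr3, the arrestin of cone photoreceptors, had at most 46 counts in any pool, and fell with Cre-Tat to 0.101 ± 0.143 from 1.59 ± 0.898 CPM in LV (adjusted p = 0.0251) and to 0.131 ± 0.0439 from 1.08 ± 0.170 in 4V ChP (0.00892, edgeR). Its counts were few in both ventricles, and Arr3 in 4V ChP was named after its values were seen. Plcb1, a phospholipase C that Gq activates, rose 2.08-fold with Cre-Tat in 4V ChP (adjusted p = 0.00715) and 2.62-fold in Otx2+/GFP mice (0.00785, edgeR), and Gnaz, the alpha subunit of Gz, rose 1.58-fold in 4V ChP (0.0252, edgeR). Gnal, the alpha subunit of Golf, fell in Otx2+/GFP mice by 1.78 ± 0.27 (adjusted p = 0.00960) and was lower in LV than in 4V ChP by 2.28 ± 0.27 (0.000208, edgeR).

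**Figure D3:**
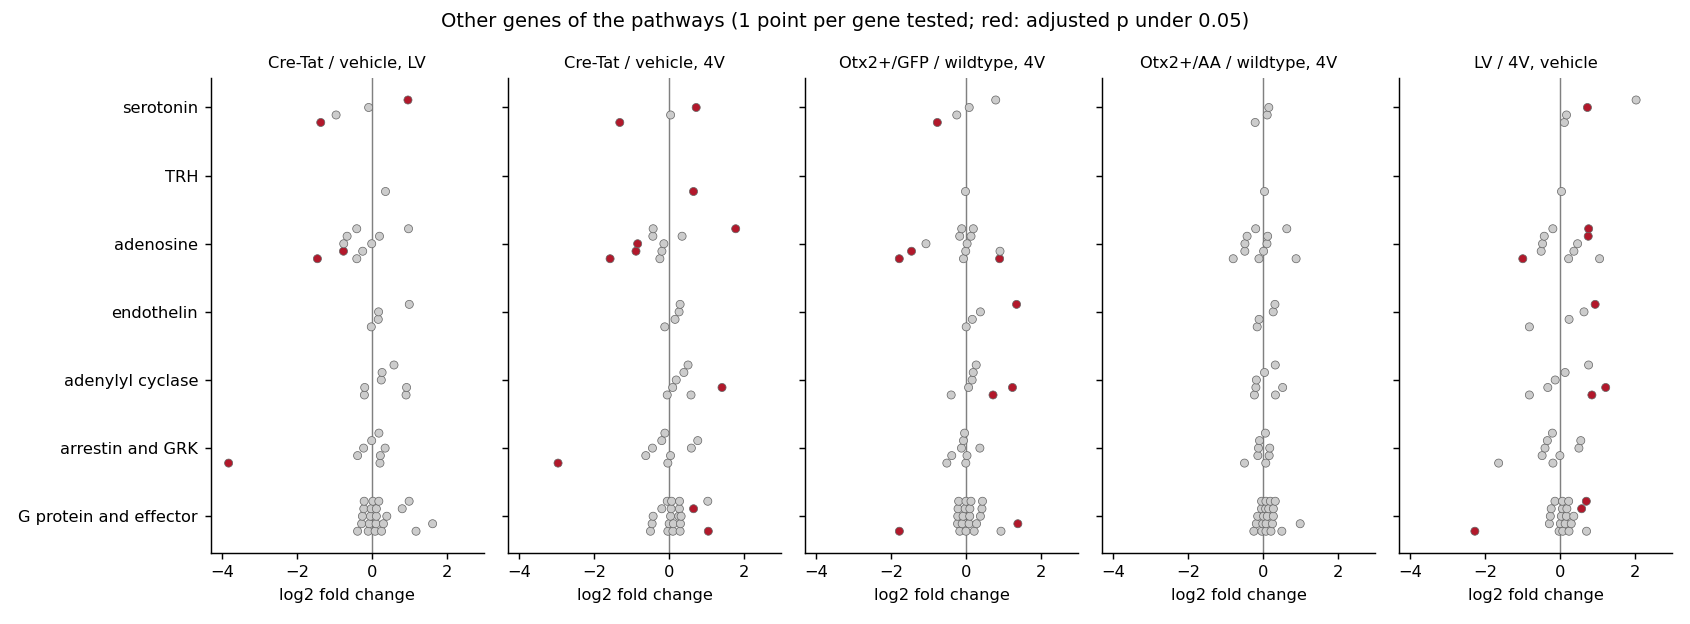
Fitted log2 fold changes of the other genes of the 7 pathway lists in 5 comparisons, with 1 point for each gene tested and red points at an adjusted p under 0.05. No point is red in Otx2+/AA mice, and Arr3 lies farthest to the left with Cre-Tat in both ventricles.

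Counted over all 7 lists, 5 of 56 genes tested passed the threshold with Cre-Tat in LV ChP (1 up, 4 down), 11 of 55 in 4V ChP (6 up, 5 down), 9 of 58 in Otx2+/GFP mice (5 up, 4 down) and 10 of 57 between ventricles (8 higher in LV). Over all genes tested, the shares were 3.24%, 10.7%, 3.53% and 7.44%. The median log2 fold change of these genes was 0.06 in LV and 0.06 in 4V ChP with Cre-Tat and 0.02 in Otx2+/GFP mice, and that of all genes tested was 0.00, 0.01 and -0.00. Between ventricles, besides Ece1, the genes higher in LV were Adcy5 (2.32-fold, adjusted p = 0.000221), Adcy3 (log2 fold change 0.85, 0.0354), Entpd1 (1.69-fold, 0.0215), Adora2b (1.68-fold, 0.0121), Slc29a4 (1.66-fold, 0.00532), Gnai1 (1.62-fold, 0.00992) and Gnas (1.49-fold, 0.0148), and Entpd3 was 2.00-fold lower in LV (0.00144, edgeR). In Otx2+/AA mice, 0 of 56 passed by edgeR and 0 by DESeq2, while 0.345% of the 14494 genes tested passed by edgeR. An unadjusted p under 0.05 by edgeR was found for 4 of the 56 (Entpd3, Adcy5, Gnai1 and Nt5e) and for 1292 of the 14494 genes, so nothing is read from these 4.

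Besides messenger RNA, the Htr2c locus yields small RNAs. Its introns hold 7 annotated miRNA genes and the small nucleolar RNA gene Snora35, all on the strand of Htr2c and none overlapping an exon. The 7 miRNA genes matched 11 mature sequences of RefSeq (GRCm38.p6), and no seed, bases 2 to 8, was shared between any of them. The mature sequences of the 3 miRNA genes with the most counts are shown with the seed in capitals, at X:147002285-147002303 and X:147002324-147002345 for the 2 arms of miR-764, X:147009493-147009514 for miR-1912-3p and X:147010655-147010676 for miR-1264-3p.
mmu-miR-764-5p: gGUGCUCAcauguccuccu
mmu-miR-764-3p: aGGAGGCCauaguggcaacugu
mmu-miR-1912-3p: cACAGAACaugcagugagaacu
mmu-miR-1264-3p: cAAAUCUUauuugagcaccugu

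A 50-base read is longer than a mature miRNA, so these counts need not follow the mature forms. The labels state depletion of ribosomal RNA and the study's methods polyA purification, which bears on how far RNA without a polyA tail, such as Snora35 and introns, was sampled. In 4V ChP, the 7 miRNA genes summed to 25.2 and 28.2 CPM with Cre-Tat against 68.0 and 77.2 with vehicle, and Htr2c fell alongside. Relative to Htr2c, they held 71.4 and 75.0 counts per 1000 counts with Cre-Tat and 80.8 and 86.2 with vehicle. In LV ChP, the vehicle pools stood apart from each other, with 49.5 CPM in pool A and 11.1 in pool B, or 60.1 and 12.3 per 1000 counts of Htr2c. Cre-Tat pools of LV held 30.3 and 36.3 per 1000 counts of Htr2c, within that range, so no direction was read for the introns in LV ChP. The messenger RNA of Htr2c did not follow this split, at 822 CPM in vehicle pool A and 899 in pool B. In the constitutive model, the sums were 2.17 to 5.07 CPM in all 6 pools, or 5.24 to 11.3 per 1000 counts of Htr2c. Strain, sequencing run and RNA input differ between the models and cannot be told apart.

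**Figure D4:**
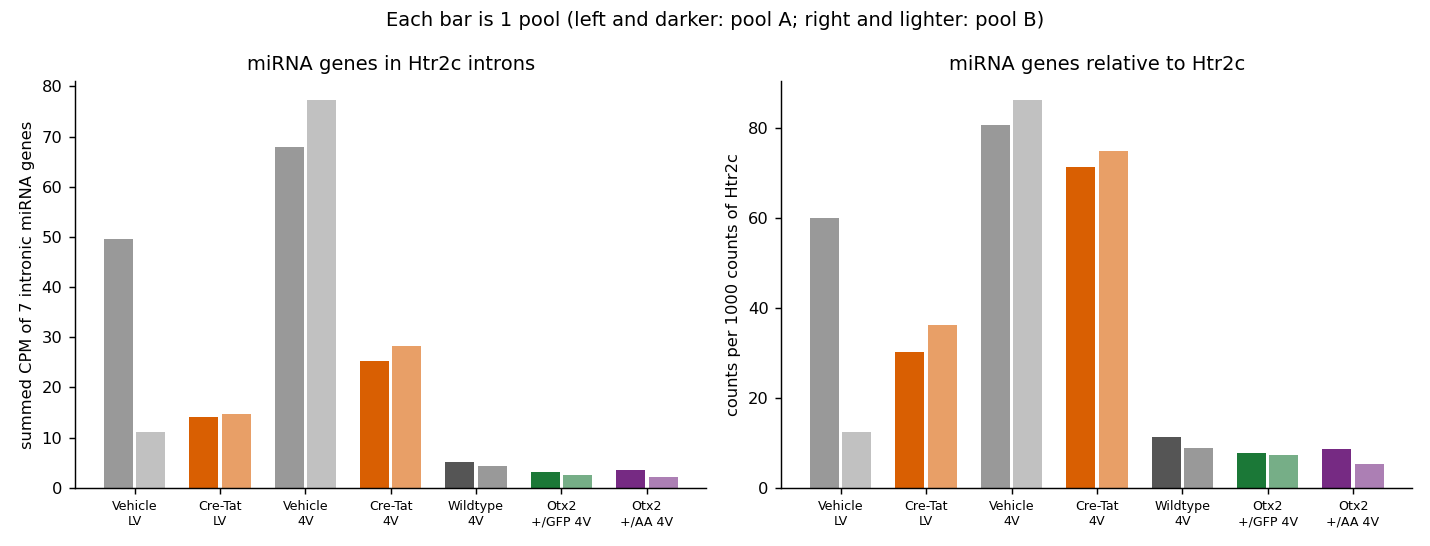
Counts on the 7 miRNA genes in Htr2c introns in each pool, as summed CPM (left) and per 1000 counts of Htr2c (right); each bar is 1 pool. Vehicle pools A and B of LV ChP differ at 49.5 and 11.1 CPM, and the 6 pools of the constitutive model lie at 2.17 to 5.07 CPM.

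Snora35 was at 631 and 784 CPM in vehicle and 476 and 350 in Cre-Tat pools of 4V ChP, and at 381 and 128 in vehicle and 158 and 297 in Cre-Tat pools of LV ChP. It was lower in LV than in 4V ChP of vehicle mice (log2 fold change -1.49 ± 0.34, adjusted p = 0.0171, edgeR). Mir764 was the other gene of these introns to pass the threshold there (-1.40 ± 0.40, adjusted p = 0.0490, edgeR). It was at 8.04 and 2.12 CPM in vehicle pools of LV and 12.1 and 14.4 in those of 4V ChP. Both calls thus rest on LV pools that stood apart from each other. Of the transcripts of Htr2c, the retained-intron form Htr2c-206 was at 403 CPM on average in vehicle pools of 4V, 214 in those of LV and 68.7 in wildtype pools, while the protein-coding Htr2c-202 was at 868, 861 and 465. Arrb1 holds Mir326 in an intron, with 1 count over all pools, and the antisense genes in the span of Gpr176 held 1 count or none.

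Transcripts of 1 gene overlap, and a read can be counted on each of them, so the forms of a gene are not independent. All 4 transcripts of Edn3 were higher with Cre-Tat, by 0.99 to 1.09 on the log2 scale of group means in LV and by 2.52 to 2.78 in 4V ChP. Both transcripts of Ednrb were lower with Cre-Tat in 4V ChP, at -1.05 and -1.06, and higher in Otx2+/GFP mice, at 0.98 for each.

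Per kilobase of transcript, the order of the 9 genes in vehicle 4V ChP was Htr2c (178 ± 7.72 CPM per kilobase, SD, n = 2), Ednrb (25.1 ± 1.05), Edn3 (6.78 ± 0.183), Arrb1 (3.91 ± 0.109), Adora1 (3.42 ± 0.240), Trhr (0.915 ± 0.320), Ednra (0.655 ± 0.151), Gpr176 (0.429 ± 0.140) and Adcy8 (0.0973 ± 0.0259). With Cre-Tat, Edn3 was at 41.1 ± 7.37 CPM per kilobase in 4V ChP and lay above its receptor Ednrb, at 12.1 ± 0.236, whereas in vehicle pools the receptor was above the ligand. In LV ChP, Edn3 was at 26.2 ± 3.86 and Ednrb at 18.9 ± 2.66 CPM per kilobase with Cre-Tat, against 12.6 ± 0.197 and 34.6 ± 3.28 with vehicle. In Otx2+/GFP mice, Ednrb stayed above Edn3, at 50.1 ± 1.84 against 19.2 ± 3.53 CPM per kilobase.

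Over the 14 pools and 13439 other genes with a mean of at least 1 CPM, the genes most like each member were found by Pearson correlation of log2 CPM. The pools share groups and runs, so these values describe these libraries. For Htr2c they were Tmem72 (r = 0.961) and Slc7a6 (0.959), for Trhr Flrt3 (0.930) and Nrp2 (0.914), and for Gpr176 Clic3 (0.853). For Adora1 they were Ndnf (0.981) and Fgf1 (0.966), for Adcy8 Cacnb3 (0.982) and Mthfd1 (0.974), and for Ednra Pald1 (0.942) and Litaf (0.935). Edn3 was the gene most like Arrb1 (0.912), ahead of Veph1 (0.903), while Edn3 itself was most like Rbp2 (0.952) and Cd55 (0.943). For Ednrb they were Slc16a6 (0.957) and Pld5 (0.949).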

How the data were processed

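RNA of 14 ChP pools was depleted of ribosomal RNA and sequenced with 50-base reads, per the labels, after a strand-specific library preparation, whereas the study's methods state polyA purification. The submitters' processing notes name bcl2fastq 1.8.4, Bowtie 0.12.9, SAMtools, HTSeq 0.5.3, DESeq 1.8.3 and build mm10. The strand setting of the counting is not given in the sources used here. The authors deposited raw read counts per Ensembl transcript, with no normalization. Of 95533 transcripts, 82807 (89.462% of counts) matched GENCODE M21, giving 33984 genes. Each gene was represented by its transcript of highest total count, in place of counts per gene. Conditional files were joined by the library number in their names, and the repeat runs of a library were summed.

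Counts were fitted for each comparison on its own groups with edgeR 4.0.16 (R 4.3.3, limma 3.58.1) by the quasi-likelihood test, with TMM factors, a filter on low counts and Benjamini-Hochberg adjustment over all genes tested, at a threshold of 0.05. The scripts were tested on simulated data. With 2 pools a group, the smallest p of an exact permutation test is 0.333, so none was used. Pools hold several mice each, except that the number is not given for Otx2+/AA pools, and p-values measure the spread between pools. Members and lists were chosen with earlier results of these data known. Named genes were the 9 members, Otx2, all genes inside their spans, the 2 genes most like each member (1 of them is not reported here), and up to 4 genes of each pathway list in each comparison, those with the largest change among genes past the threshold with at least 10 normalized counts on average. CPM for correlations had 0.1 added before logs. Alternatives were DESeq2 1.42.0, edgeR with DESeq2 size factors or with total counts, no filter on counts, the sum of transcripts, a block on pool letter, files as attached, and leaving out each pool. Tables were handled with Python 3.11.15, pandas 2.3.3, NumPy 2.4.6 and SciPy 1.17.1, and plots drawn with matplotlib 3.10.9.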

Additional observations from a re-analysis of the deposited data

Results flagged for a closer look

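The fitted change with Cre-Tat was higher in 4V than in LV ChP for Gpr176, by 3.07 on the log2 scale. Gpr176 was picked with both changes known, so this interaction is a description. The value was 2.94 without Cre-Tat pool A of LV ChP, 2.67 without vehicle pool B of LV, 3.09 and 3.03 without Cre-Tat pool A or B of 4V and 2.77 without vehicle pool B of 4V ChP, and passed the threshold in none of these 5 fits.

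In 4V ChP, the change differed between the constitutive and conditional models, given as Otx2+/GFP minus Cre-Tat on the log2 scale, by 4.74 for Trhr, 2.05 for Ednrb, 0.95 for Htr2c, -1.16 for Edn3, -2.95 for Adcy8 and -3.11 for Gpr176. These 6 genes were picked with the underlying changes known, so their differences are a description. Htr2c passed the threshold, of the fits that leave out a pool, only without Otx2+/GFP pool B or Cre-Tat pool B, and Edn3 only without wildtype pool B, Otx2+/GFP pool A or Cre-Tat pool A. Adk, at 1.10 (adjusted p = 0.0158, edgeR quasi-likelihood test), and Mme, at 1.06 (adjusted p = 0.0209, edgeR), differed in the same way, and both lists were drawn up with earlier results known. Strain, sequencing run and RNA input differ with the model and cannot be told apart from it.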

How the results depend on the processing

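Of 755 alternative values of the 9 genes, 645 kept their direction and side of the threshold, 37 lost the call, 15 gained it and 58 changed sign, 18 of these among the 30 values past the threshold. Joining files as attached, which mixes libraries, changed most signs. Between ventricles it gave 0.0125 for Htr2c, 0.45 for Trhr, -0.14 for Gpr176, -0.22 for Adcy8, -0.0101 for Arrb1 and -0.46 for Edn3. With Cre-Tat in LV ChP, it gave 0.14 for Htr2c, -2.11 for Trhr, -0.52 for Adora1, -1.18 for Adcy8, 0.36 for Ednra, 0.51 for Ednrb and -0.37 for Edn3. In 4V ChP, the values were 0.19 for Htr2c, -2.16 for Trhr, -1.82 for Gpr176, -0.72 for Adora1, -1.35 for Adcy8, -0.0371 for Arrb1, 0.69 for Ednrb and -0.62 for Edn3. For Cre-Tat by ventricle they were 0.0486 for Htr2c, -0.17 for Adcy8, -0.15 for Arrb1, 0.19 for Ednrb and -0.25 for Edn3, and between models -0.49 for Htr2c, 1.72 for Gpr176, 1.99 for Adora1, 2.84 for Adcy8, 0.99 for Arrb1 and 2.07 for Edn3. Pathway genes past the threshold then numbered 16 between ventricles (10 as reported), 34 (5) and 35 (11) with Cre-Tat in LV and 4V ChP, 15 (0) for Cre-Tat by ventricle and 20 (2) between models. Total counts turned Adcy8 between ventricles to -0.16 and Gpr176 and Ednra with Cre-Tat in LV ChP to 0.12 and 0.16, and put the median of all genes at -0.185 between ventricles, at 0.174 and 0.147 with Cre-Tat in LV and 4V ChP, at 0.114 in Otx2+/AA mice and at -0.123 between models. The sum of transcripts gave 0.0616 for Ednra with Cre-Tat in LV ChP and 0.0338 for Adora1 by ventricle, left 0 members in Otx2+/AA mice (2 as reported) and 0 by ventricle (1), and 1 pathway gene between models. With no filter, Adora1 by ventricle was 0.0053, 2 members passed by ventricle, as they did with DESeq2 and as attached, and 3, 11 and 4 pathway genes passed in Otx2+/AA mice, with Cre-Tat in LV ChP and between models. Genes called in Otx2+/AA mice numbered 50 as reported, 115 with DESeq2, 390 with no filter and 22 with the sum of transcripts.

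Pools of different treatments or genotypes share only a letter. LV and 4V pools of a treatment came from the same mice, but it is not stated whether their letters match. Correlations of deviations between pools of a letter were 0.104 to 0.444, except -0.209 with Cre-Tat in LV ChP. With the letter as a block, Adcy8 between ventricles was -0.10, 2 members passed by ventricle, and 4, 8 and 18 pathway genes passed in Otx2+/AA mice and with Cre-Tat in LV and 4V ChP. The block called 549 genes in Otx2+/AA mice and 3114 with Cre-Tat in 4V ChP (1554 as reported). Letters crossed with Cre-Tat in LV ChP, a choice made after seeing the data, called 1012 genes (622 with the block, 486 as reported) and 11 pathway genes.

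Without each pool in turn, in fits that assume a lone pool varies as the others do, members past the threshold numbered 1 to 3 in Otx2+/AA mice, 1 to 3 between ventricles, 0 to 2 by ventricle and 3 to 5 between models, and pathway genes 0 to 2, 5 to 14, 2 to 6 and 5 to 13 in Otx2+/AA mice, between ventricles and with Cre-Tat in LV and 4V ChP, and 0 to 2 between models. Values that changed sign ranged from -0.11 to 0.38 for Adora1 and -0.0228 to 0.40 for Ednra in Otx2+/AA mice, and from -0.0867 to 0.0065 for Htr2c and -1.02 to 0.63 for Adcy8 between ventricles. With Cre-Tat in LV ChP, they ranged from -0.073 to 1.15 for Trhr, -0.38 to 0.34 for Gpr176 and -0.12 to 0.10 for Ednra, and in 4V ChP from -0.0885 to 0.66 for Trhr. By ventricle they ranged from -0.92 to 0.29 for Trhr and -0.11 to 0.10 for Adora1, and between models from -0.12 to 0.0444 for Arrb1 and -0.80 to 0.0398 for Ednra. The cause was not tested.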
